A study of Mus musculus with 12 samples.

Results

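Pou5f1, Sox2, Nanog, Klf4 and Esrrb encode core transcription factors of the pluripotent state, and the peaks described here are those of the chromatin remodeller Ino80 at the loci of these 5 genes. A locus was taken as the gene's span in the mouse build mm9 together with 50 kb on either side, and a peak belonged to it when at least 1 bp overlapped. By this rule 24 of the 12749 Ino80 peaks, 0.188% of the list, lay at the 5 loci, with 7 at Pou5f1, 6 at Nanog, 5 at Esrrb and 3 each at Sox2 and Klf4. The rule used the positions of the genes and no measured value, but the genes were chosen with earlier results of these data known.

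In its design text the study asked where Ino80 is located in embryonic stem cells of the mouse. It comprises 12 libraries from J1, a line of such cells. They are ChIP-seq libraries (sequencing of the DNA that an antibody to a chromatin protein pulls down) and inputs, which are made without a pull-down. Of the 12, 1 was used here through its list of peaks. That library was an Ino80 ChIP of J1 cells for which the labels name no short hairpin RNA and no other treatment. The 10 libraries of hairpin-carrying cells (non-targeting or Ino80) were ChIPs of the proteins Oct4, Klf4, Med1 and Pol II, with inputs. They and the input of the Ino80 ChIP were not analysed here. There is therefore 1 library and no replicate error, and no test between groups was made. The list gives no read count or score, so the depth behind a peak is unknown and no peak can be called stronger than another. Expression was not measured, so the cell type could not be checked against its markers.

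Ino80 is the catalytic ATPase of the INO80 complex, which slides nucleosomes along DNA and acts on nucleosomes with the histone variant H2A.Z, often near gene starts and enhancers. Pou5f1 encodes Oct4, a POU-domain factor that binds DNA together with Sox2, an HMG-box factor. Nanog is a homeodomain protein, Klf4 a zinc-finger factor of the Krüppel-like family and Esrrb an orphan nuclear receptor, and these factors bind regulatory regions of one another's genes in embryonic stem cells. Enhancers of these genes are known upstream, downstream and, for Esrrb, within introns. Their positions were not used here.

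The RefSeq sequences around the 5 gene starts are shown because the genes differ there in base composition. The genes also differed in the position of their peaks. The starts of Pou5f1, Nanog and Sox2 lay inside an Ino80 peak, and the start of Klf4 lay between a pair of peaks. The start of Esrrb lay far from any peak. For peaks, the start is the 5' end of the mm9 span, and RefSeq lists a second start for Pou5f1, Nanog and Esrrb. Each sequence runs from 250 bases before the start to 50 bases from it on the strand of the gene, in build GRCm38.p6, while all peaks are given in mm9. They are chr17:35505782-35506081 on the plus strand for Pou5f1, chr6:122707239-122707538 on the plus strand for Nanog, chr3:34649745-34650044 on the plus strand for Sox2, chr4:55532426-55532725 on the minus strand for Klf4 and chr12:86360867-86361166 on the plus strand for Esrrb. Capitals mark matches, on either strand, to GGGNGNGG (the kind of G-rich site that Krüppel-like factors bind) and to CATTGT (a core that Sox factors bind).
Pou5f1: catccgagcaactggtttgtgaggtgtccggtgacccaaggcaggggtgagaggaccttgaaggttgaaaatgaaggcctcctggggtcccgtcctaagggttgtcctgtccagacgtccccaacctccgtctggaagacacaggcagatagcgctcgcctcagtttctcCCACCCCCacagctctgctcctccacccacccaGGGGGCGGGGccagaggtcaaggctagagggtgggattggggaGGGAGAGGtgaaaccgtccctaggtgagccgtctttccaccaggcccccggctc
Nanog: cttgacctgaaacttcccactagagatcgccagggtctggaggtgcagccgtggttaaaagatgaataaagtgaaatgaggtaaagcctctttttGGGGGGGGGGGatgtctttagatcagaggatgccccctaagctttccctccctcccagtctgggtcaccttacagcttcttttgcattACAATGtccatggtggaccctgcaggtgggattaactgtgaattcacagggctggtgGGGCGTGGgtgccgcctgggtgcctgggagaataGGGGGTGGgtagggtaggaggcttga
Sox2: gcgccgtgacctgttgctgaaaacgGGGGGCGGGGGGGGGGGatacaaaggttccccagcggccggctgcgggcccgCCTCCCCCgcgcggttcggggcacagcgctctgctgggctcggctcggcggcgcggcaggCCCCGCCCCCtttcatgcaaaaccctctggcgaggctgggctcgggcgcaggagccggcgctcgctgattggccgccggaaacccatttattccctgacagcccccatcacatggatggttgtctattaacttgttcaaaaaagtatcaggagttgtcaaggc
Klf4: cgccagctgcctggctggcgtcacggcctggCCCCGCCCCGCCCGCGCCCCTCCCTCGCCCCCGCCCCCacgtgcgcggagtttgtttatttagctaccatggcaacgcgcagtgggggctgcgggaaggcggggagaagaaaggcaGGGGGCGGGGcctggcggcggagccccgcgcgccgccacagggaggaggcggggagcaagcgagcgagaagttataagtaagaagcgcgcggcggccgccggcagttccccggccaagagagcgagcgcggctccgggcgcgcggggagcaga
Esrrb: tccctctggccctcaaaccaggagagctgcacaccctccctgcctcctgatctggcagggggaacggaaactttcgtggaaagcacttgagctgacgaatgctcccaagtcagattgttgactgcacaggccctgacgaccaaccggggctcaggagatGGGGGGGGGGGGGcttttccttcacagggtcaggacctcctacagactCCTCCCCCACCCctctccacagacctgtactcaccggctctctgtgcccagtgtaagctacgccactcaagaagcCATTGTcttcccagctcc

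Klf4 and Sox2 had the most CpG-rich of these sequences. The Klf4 sequence held 40 CpG dinucleotides at a GC content of 74.3%, and its ratio of observed to expected CpG was 0.974, a value that 7.44% of the 32851 RefSeq promoter sequences of the same length reached. Sox2 followed with 27 CpG, a GC content of 66.3% and a ratio of 0.819, reached by 19.3% of them. Pou5f1 had 11 CpG and a ratio of 0.374, Esrrb 7 CpG and 0.266, and Nanog 4 CpG and 0.192, against a median ratio of 0.384 over all promoter sequences. The 3 starts inside an Ino80 peak thus included the lowest CpG ratio of the 5 (Nanog) and the second highest (Sox2).

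The G-rich motif GGGNGNGG matched all 5 sequences, but it also matched 49.5% of all promoter sequences. The number of matches, overlapping ones included, was 9 each for Sox2 and Klf4, 8 for Esrrb, 6 for Nanog and 4 for Pou5f1. A single run of G, as in the Nanog and Esrrb sequences, gave several of these matches. The numbers are thus not counts of separate sites, and their order does not rank the genes by such sites. CATTGT matched Nanog and Esrrb, and 12.6% of all promoter sequences. The octamer ATTTGCAT, the site TCAAGGTCA of the Esrrb type and AAGATGGC of the Yy1 type matched none of the 5, and 1.74%, 0.423% and 2.75% of all promoter sequences. In the Nanog sequence the CATTGT match, read as ACAATG, directly follows the letters ttttgcatt, and together they form ttttgcattACAATG, where a composite element for Oct4 and Sox2 is known; this stretch was picked out after the sequence had been seen.

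Ino80 peaks filled 22.4% of the summed length of the 5 loci, 153 kb of 681 kb. Over the whole list, 2.16% of the sequence between the first and last peak of the chromosomes lay inside a peak, so the loci were covered 10.4 times as densely. The covered share was 34.0% at Pou5f1, 33.5% at Nanog, 27.9% at Sox2, 16.2% at Esrrb and 9.68% at Klf4. This order depended on the flank: with 10 kb on either side Sox2 came first at 84.5%, before Pou5f1 at 76.5% and Nanog at 37.6%, and with 25 kb Nanog, at 19.0%, stood below Esrrb at 20.1%. At 50 kb each of these stood above the share of the gene's own chromosome, which was 3.46% for chromosome 17 (Pou5f1), 1.75% for chromosome 6 (Nanog), 1.63% for chromosome 3 (Sox2), 1.60% for chromosome 12 (Esrrb) and 2.59% for chromosome 4 (Klf4).

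**Figure D1:**
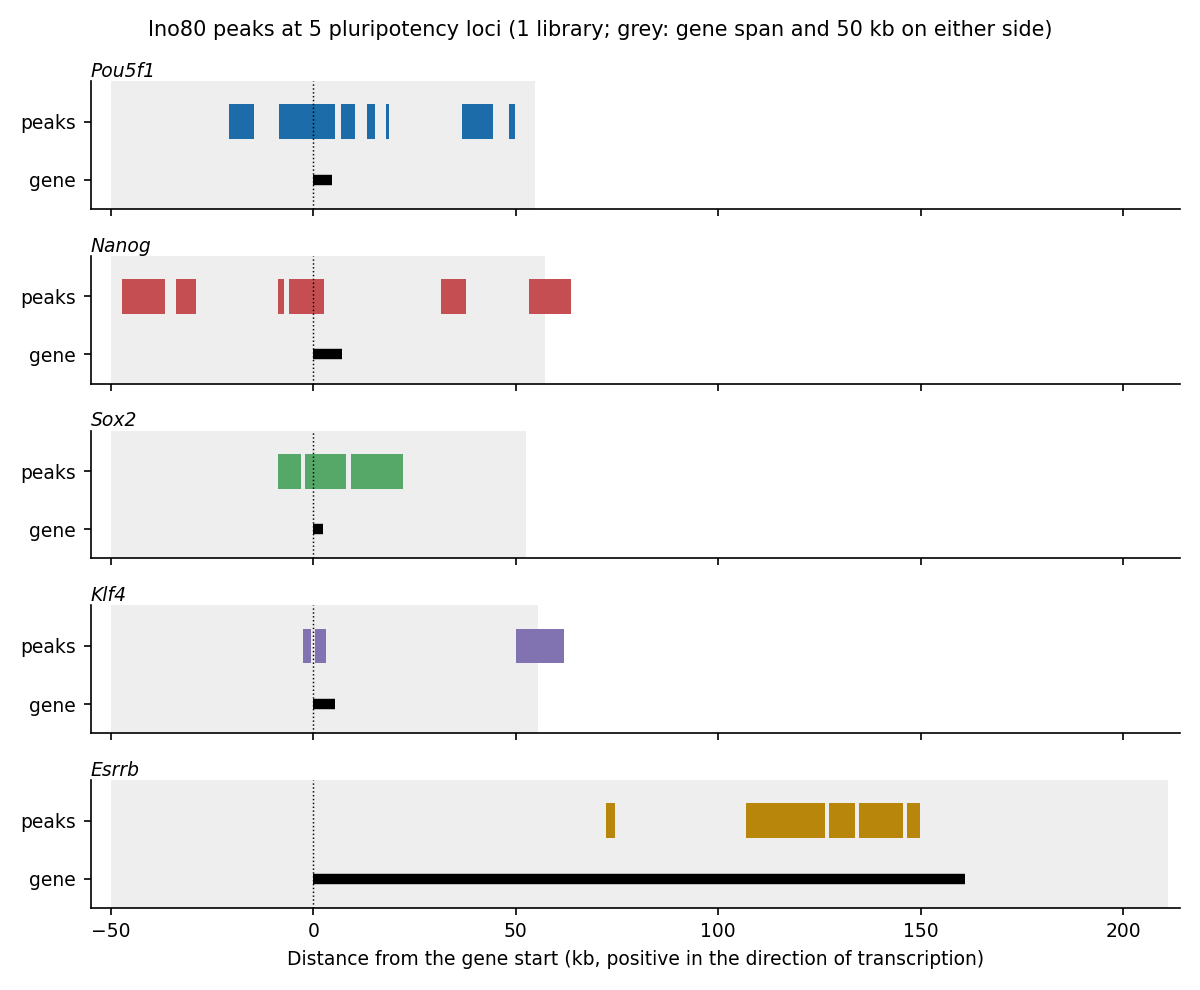
Ino80 peaks (coloured bars) and the gene span (black bar) at each of the 5 loci, by distance from the gene start in kb, positive in the direction of transcription; grey marks the gene span with 50 kb on either side, and a peak that crosses its border is drawn whole. Peaks lie over the starts of Pou5f1, Nanog and Sox2, on both sides of the Klf4 start, and for Esrrb only inside the gene, from 72.2 kb on.

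To set these values against the rest of the genome, the sequence between the first and last peak of every chromosome was cut into neighbouring windows as long as each locus. A window held at least 1 peak in 29.3% of windows as long as the Pou5f1 locus, 29.7% for Nanog, 29.0% for Sox2, 29.4% for Klf4 and 47.6% for the longer Esrrb locus, and all 5 loci held at least 1. As many peaks as at Pou5f1, 7 or more, were found in 0.287% of windows, and as many as at Nanog, 6 or more, in 0.789%. The 3 peaks of Sox2 and of Klf4 were reached in 6.25% and 6.40% of windows, and the 5 of Esrrb in 8.59%.

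Nanog, Sox2 and Esrrb stood further out by covered share than by number of peaks, while Pou5f1 and Klf4 did not. A share at least as high was reached in 0.468% of windows for Pou5f1, 0.462% for Nanog, 0.871% for Sox2 and 2.24% for Esrrb, and in 6.74% for Klf4. The most densely covered windows of the genome were covered to 73.1% at the length of the Pou5f1 locus and to 44.15% at the length of the Esrrb locus, so none of the 5 was the most densely covered place. These shares describe the list of 1 library. They are no test, since windows without genes or without mappable sequence are among those counted.

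The peaks at the loci were wide. Their median width was 6200 bp, with a range from 800 bp to 19.6 kb, against a median of 3600 bp for the 12725 other peaks. Of the 24 peaks, 15 were wider than that median, 1 equalled it and 8 were narrower. Peaks of at least 10 kb numbered 8, or 33.3% of the 24, against 4.75% of the whole list, and every locus had at least 1. At Klf4 the only such peak lay 44.6 kb from the gene, with 5.40 kb of it inside the locus. A wide peak reaches into a locus more easily than a narrow one, and 2 of these 8 crossed the border of their locus. The width of a peak also depends on the caller's settings, which no source used here gives.

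**Figure D2:**
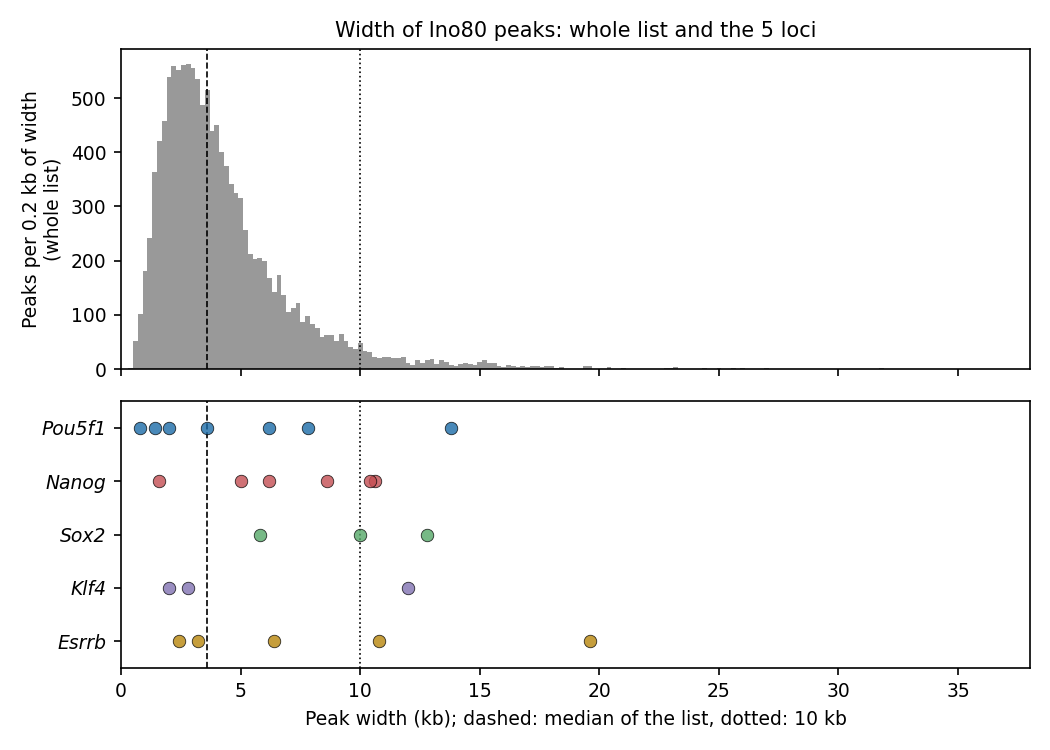
Widths of all 12749 Ino80 peaks (top, number of peaks per 0.2 kb of width) and of the 24 peaks at the loci (bottom, 1 point per peak, by gene), in kb; the dashed line is the median of the list and the dotted line 10 kb. Each gene has at least 1 point at or beyond the dotted line, and Pou5f1 has the narrowest peak of all 24, at 0.8 kb.

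Pou5f1 (chromosome 17, 35642977 to 35647722, plus strand) lay whole inside 1 peak. This peak ran from 35634601 to 35648400, was 13.8 kb wide and covered all 4746 bp of the gene span, from 8.38 kb upstream of the start to 5.42 kb downstream of it. Of the whole list 220 peaks were at least as wide, and each such count includes the peak itself.

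The other 6 peaks of the Pou5f1 locus lay on both sides of the gene. Upstream there was 1, of 6.2 kb (35622201 to 35628400), 14.6 kb from the gene start. Downstream, 3 peaks followed the gene at 2.08, 8.48 and 13.3 kb from its end. Their widths of 3.6, 2.0 and 0.8 kb fell with distance. Farther downstream came a peak of 7.8 kb (35679601 to 35687400), 31.9 kb from the gene, and one of 1.4 kb (35691401 to 35692800) at 43.7 kb. The nearest protein-coding neighbours in the order of the GRCm38.p6 gene table were H2-Q10 upstream, a class I gene of the major histocompatibility complex, and Tcf19 downstream. Their mm9 positions were not used, so which of the distal peaks lie in a neighbour was not examined.

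Sox2 (chromosome 3, 34548927 to 34551382, plus strand), the partner of Oct4 on DNA, also lay whole inside 1 peak. That peak was 10 kb wide (34547001 to 34557000) and ran from 1.93 kb upstream to 8.07 kb downstream of the start. A peak of 5.8 kb (34540201 to 34546000) ended 1000 bp before it, and one of 12.8 kb (34558201 to 34571000) began 1200 bp after it. The 3 peaks together reached from 8.73 kb upstream to 22.1 kb downstream of the start, nearly without a break.

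Beyond this block the flanks of Sox2 were empty. No peak lay between 10 and 50 kb upstream or between 25 and 50 kb downstream of the gene, and the next peak upstream was 566 kb away. Downstream the next peak was 13.6 kb wide (34652801 to 34666400) and began 104 kb from the gene start, outside the locus as defined. A distant downstream control region of Sox2 is known, and whether this peak lies in it was not examined. The protein-coding neighbours were Dnajc19 upstream and Atp11b downstream.

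At Nanog (chromosome 6, 122657507 to 122664651, plus strand) the peak over the start covered only the first part of the gene. It was 8.6 kb wide (122651601 to 122660200), began 5.91 kb upstream of the start and ended 2.69 kb inside the gene, so that it covered 37.7% of the span. A narrow peak of 1.6 kb (122648801 to 122650400) lay 1200 bp upstream of it. No other peak touched the gene, and the 10 kb after its end held no peak.

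The Nanog locus had more covered sequence in its distal flanks than the Pou5f1 or Sox2 loci had. From 25 to 50 kb upstream, 62.4% of the sequence lay inside peaks, against none at the other 4 genes. These were a peak of 10.6 kb (122610201 to 122620800), 36.7 kb from the start, and one of 5.0 kb (122623601 to 122628600), 28.9 kb from it. Downstream there were peaks of 6.2 kb (122689001 to 122695200) and 10.4 kb (122710801 to 122721200), at 24.4 and 46.2 kb from the gene end, the latter crossing the border of the locus. The nearest protein-coding neighbours were Dppa3 upstream, a gene expressed in pluripotent cells and the germ line, and Slc2a3 downstream, which encodes a glucose transporter. Whether the distal peaks lie in these genes was not examined.

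Klf4 (chromosome 4, 55540000 to 55545400, minus strand) had small peaks at the gene and a wide one far from it. Its span is given to the nearest 100 bp. A peak of 2.8 kb (55542201 to 55545000) lay inside the gene and covered 51.8% of it, ending 400 bp downstream of the start. A second peak of 2.0 kb (55546001 to 55548000) began 601 bp upstream of the start. The start itself thus fell in the 1000 bp between them, the smallest distance between any neighbouring peaks of the list, and moving it by 100 bp either way left it there.

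The third Klf4 peak was 12 kb wide (55483401 to 55495400) and began 44.6 kb beyond the gene's 3' end. It crossed the border of the locus, and only 5.40 kb of it were counted in the covered share. A further peak of 6.8 kb (55472801 to 55479600) lay 60.4 kb from the gene, just outside the locus. Enhancers of Klf4 are known downstream of the gene, and whether these peaks lie in them was not examined. The protein-coding neighbours were Actl7b upstream and Rad23b downstream.

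Esrrb (chromosome 12, 87702000 to 87863000, plus strand), by far the longest of the genes, carried all 5 of its peaks inside the gene span, which is given to the nearest kb. None lay in the 50 kb on either side, and the next peaks were 140 kb upstream and 165 kb downstream. The gene start was 72.2 kb from the nearest peak, a peak of 2.4 kb (87774201 to 87776600). RefSeq lists a second start for Esrrb, Pou5f1 and Nanog alike. The mm9 positions of these were not used, so all distances here are from the 5' end of the span.

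The other 4 peaks of Esrrb followed each other at exactly 1000 bp, the smallest distance between any neighbouring peaks of the list. They were 19.6 kb (87808801 to 87828400), 6.4 kb (87829401 to 87835800), 10.8 kb (87836801 to 87847600) and 3.2 kb (87848601 to 87851800) wide. The widest of them was the widest at any of the 5 loci, and 48 peaks of the list were at least as wide. Together the 4 peaks reached from 107 to 150 kb past the start, and peaks covered 26.3% of the gene span. The protein-coding neighbours were Gpatch2l upstream and Vash1 downstream.

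**Figure D3:**
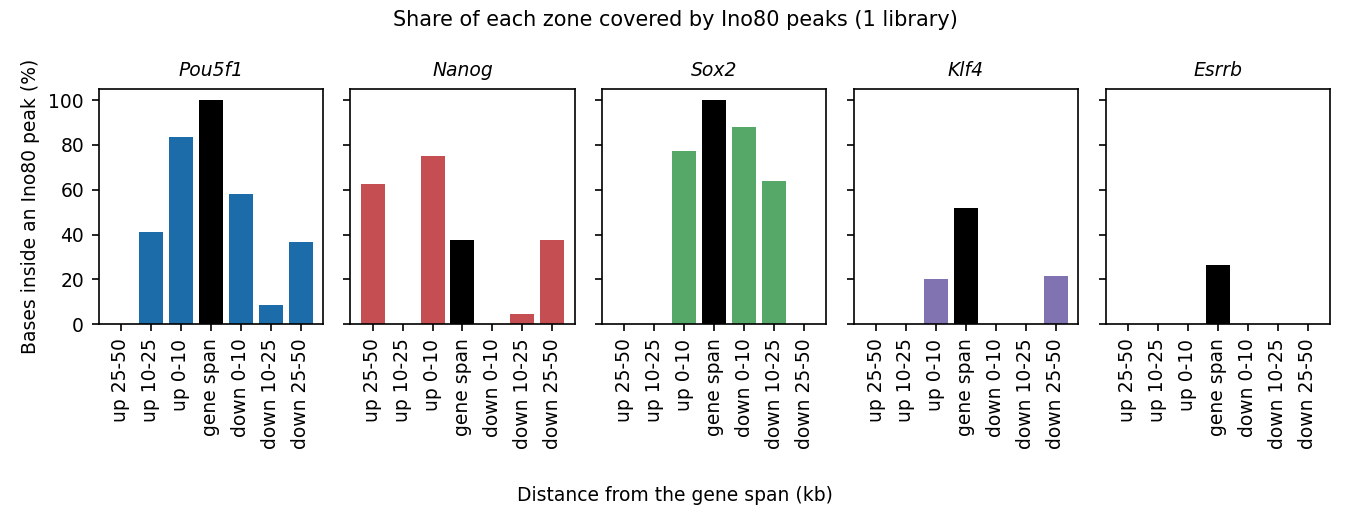
Share of bases inside an Ino80 peak, in percent, for the gene span (black) and for 3 distance classes on either side of it in kb, upstream (up) and downstream (down), at each of the 5 loci. The spans of Pou5f1 and Sox2 are covered to 100%, Nanog alone is covered from 25 to 50 kb upstream, and Esrrb is covered in its span only.

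In 4 of the 5 genes the gene span was covered to a larger share than the first 10 kb upstream of it. The values were 100% against 83.8% at Pou5f1, 100% against 77.3% at Sox2, 51.8% against 20% at Klf4 and 26.3% against 0% at Esrrb. Nanog had the opposite order, with 37.7% of its span and 75.1% of the 10 kb upstream inside peaks. These shares are over unlike lengths, since the spans measure 4.7 kb (Pou5f1), 2.5 kb (Sox2), 5.4 kb (Klf4), 161 kb (Esrrb) and 7.1 kb (Nanog). At Pou5f1 the peak over the start also covered the 8.38 kb before it, so an upstream stretch as long as the span was covered whole too. The order therefore does not show that peaks favour the gene over the sequence before it. Summed over the 5 genes, 51.2% of the first 10 kb upstream lay inside peaks, compared with 30.5% of the gene spans, of which 161 kb of 181 kb are Esrrb, and 29.2% of the first 10 kb downstream. From 10 to 25 kb the share was 8.27% upstream and 15.4% downstream, and from 25 to 50 kb it was 12.5% and 19.2%.

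Of the 24 peaks, 3 lay over a gene start, 6 lay elsewhere inside a gene, 6 upstream and 9 downstream. The number of starts inside a peak was 3 of 5, where 2.16% of all 200 bp steps of the peak grid lay inside one. Gene starts are not evenly spread, and the share of all gene starts with an Ino80 peak was not computed, so this does not set the 5 genes apart from other genes. Klf4 was the one further gene with a peak within 1 kb of its start.

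Neighbouring peaks stood close together. Of the 19 distances between neighbouring peaks within the loci, 8 were at most 1400 bp, and 5 of these were 1000 bp, at Esrrb (3), Sox2 and Klf4. In the whole list, 5.20% of the 12729 distances were at most 1400 bp. Of these 12729, 309 were 1000 bp, the smallest distance in the list. Distances between peaks that share a locus cannot exceed its length, so they are shorter by construction. To see the blocks as wholes, peaks less than 5000 bp apart were joined, which gave 11023 stretches with a median of 3600 bp in the whole list and 12 at the loci.

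Of the 12 stretches at the loci 4, or 33.3%, were longer than 20 kb, at Esrrb, Sox2, Pou5f1 and Klf4, against 2.69% of all stretches. Long stretches reach into a locus more easily than short ones. The Esrrb stretch of 4 peaks measured 43.0 kb, a length that 28 stretches of the list reached. The Sox2 stretch of 3 peaks measured 30.8 kb, reached by 86, and the Pou5f1 stretch of 4 peaks, which held the gene, 27.2 kb, reached by 128. At Klf4 the distal peak joined the one just outside the locus to 22.6 kb, reached by 216, while the pair of peaks around the gene start joined to 5.8 kb. The longest Nanog stretch was the distal upstream pair at 18.4 kb, and the stretch over its start measured 11.4 kb. The longest stretch therefore held the gene start at Pou5f1 and Sox2, and lay away from it at Nanog, Klf4 and Esrrb.

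**Figure D4:**
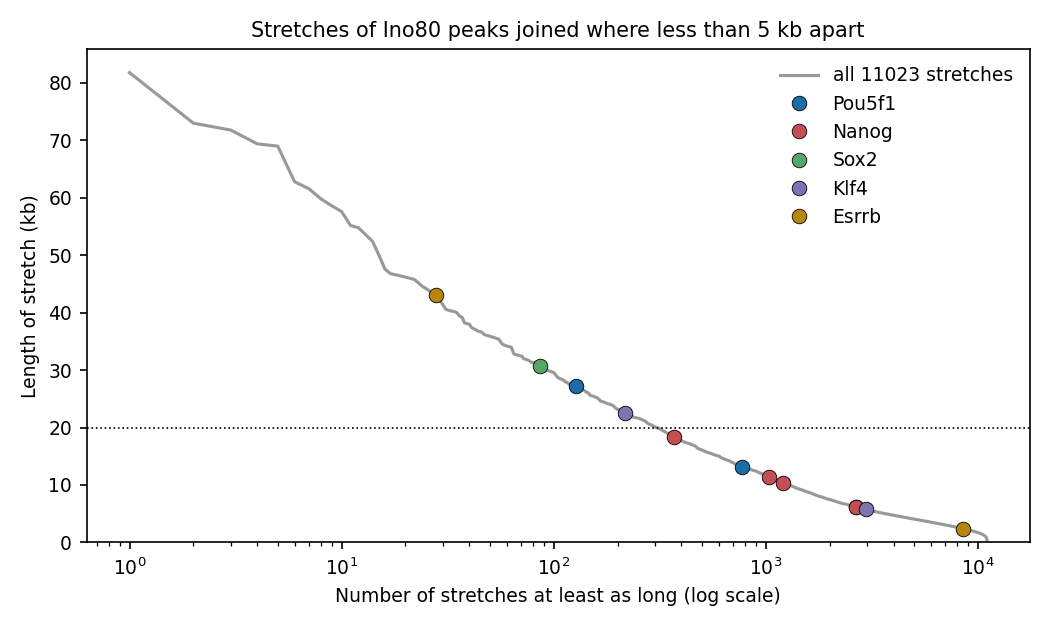
Length in kb of stretches of Ino80 peaks, joined where less than 5 kb apart, against the number of stretches at least as long (log scale), for all 11023 stretches (line) and the 12 at the loci (points, by gene); the dotted line is at 20 kb. Esrrb, Sox2, Pou5f1 and Klf4 each have 1 point above that line, and the points of Pou5f1 and Nanog at 6.2 kb coincide.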

How the data were processed

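The peak list comes from 1 Ino80 ChIP-seq library of J1 cells, and was matched to that sample through the title in its name. Per the submitters' processing notes, the tools were bedtools, SICER 1.1, Bowtie 0.12.8 and CASAVA 1.7, with mm9 and hg19 as builds and no roles named. On the peak caller's settings, its control and pooling, nothing is given in the sources used here. The coordinates deposited by the authors lie on a 200 bp grid, and 1 bp was added to both ends, reading them as counted from 0. The build of the peaks was taken to be mm9.

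Gene spans in mm9 were given with the rule for the members, and strand, neighbours and promoter sequences came from RefSeq tables of GRCm38.p6, in which all 5 genes were matched by symbol. The list of further pluripotency and INO80 subunit genes was not applied, because no mm9 annotation was used here. Overlap and cover were computed in Python 3.11.15, with the interval functions tested on simulated data. Windows ran from the first to the last peak of a chromosome. The named genes are the 5 members and their nearest protein-coding neighbours. Members, lists and alternatives were chosen with earlier results of these data known. Joining at 5000 bp for stretches and the 20 kb and 1400 bp limits were set after the peaks had been seen.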

Additional observations from a re-analysis of the deposited data

How the results depend on the processing

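The number of peaks at the loci, 24, was 15 with flanks of 10 kb and 12 after joining peaks less than 5000 bp apart, and stayed within 1.5 times under the other 5 alternatives (16 for the widest 50% of peaks, 18 and 29 with flanks of 25 and 100 kb, 22 when the whole peak had to lie inside, 24 with coordinates read as 1-based). The covered share of 22.4% was 33.9% with flanks of 10 kb, 26.25% with 25 kb and 15.9% with 100 kb, 20.04% for the widest 50% of peaks and 25.5% after joining. It was above the 2.16% of the whole, unaltered list in each. The share over the whole list was not recomputed after joining or for the widest 50% of peaks. The 3 starts inside a peak became 4, with Klf4, when a start within 1 or 5 kb of a peak counted or when peaks were joined, and stayed 3 under the other 4 alternatives. Joining and the moved start were added after the data had been seen. The 8 peaks of at least 10 kb were 5 with flanks of 10 or 25 kb, against 8 with 100 kb. Over the alternatives the covered share ranged from 20.6% (flanks of 100 kb) to 76.5% (10 kb) at Pou5f1, from 19.0% (25 kb) to 37.6% (10 kb) at Nanog, from 14.1% (100 kb) to 84.5% (10 kb) at Sox2, from 5.12% (widest 50%) to 18.9% (10 kb) at Klf4 and from 11.7% (100 kb) to 23.4% (10 kb) at Esrrb. Without read counts no threshold on strength could be tried. The widest 50% of peaks is a limit on width only, and whether width follows strength was not tested. No paired analysis was possible because only a single library entered the work.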
